A study of Drosophila melanogaster with 6 samples.

Results

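The genes described here are 10 regulators that pattern the imaginal discs of Drosophila: vg, sd, ap, Dll, wg, dpp, hh, en, salm and nub. They were chosen by name for their role in the discs, with earlier results of these data known, and all 10 were among the 16727 genes counted in each library. The study compared poly(A) RNA of larvae, with 3 wt and 3 CG1603PBac libraries, which the labels call biological replicates. Per the study's methods, larvae of both genotypes were taken at the same age after egg laying. CG1603PBac larvae were homozygous for a PiggyBac transgene that carries stop codons in every reading frame and sits in an intron of CG1603, a zinc finger transcription factor gene. The line had been backcrossed to a white-eyed laboratory strain, and homozygotes were picked by the absence of a fluorescent balancer chromosome. The labels give the controls as wt without naming their strain. Homozygous mutants stop development as second-instar larvae, so genotype and developmental progress cannot be told apart in these samples.

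Imaginal discs are sacs of diploid epithelium, set aside in the embryo, that grow during larval life and form the adult wings, legs, eyes and other appendages. Their cells are divided into compartments by selector genes, and short-range signals at the compartment borders, Hedgehog, Decapentaplegic and Wingless, then set the expression of further transcription factors that give each region its fate. All of these genes are also used outside the discs, in the nervous system, epidermis, gut or tracheae, and a whole-larva library does not say which tissue a read came from. In such libraries fewer cells of a type and less RNA per cell cannot be told apart either.

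Each library held between 27100927 and 36016914 gene counts. Of all reads, 8.39 to 9.09% in wt and 30.9 to 31.8% in CG1603PBac libraries did not align. Levels are given as CPM, TMM-scaled counts per 1000000, and fold changes as log2 of CG1603PBac over wt from edgeR's quasi-likelihood test, with p-values adjusted over the 11306 genes tested and a threshold of 0.05.

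Disc patterning genes were higher in CG1603PBac larvae. Of the 10 genes, 9 rose, none fell, and ap, the dorsal selector of the wing, did not pass (adjusted p = 0.207 from edgeR). Over all genes tested 34.8% were called higher and 34.9% lower. On the log2 scale the 10 genes had a median change of 0.68, against 0.06 over all genes tested. In 8 of the 10 genes every CG1603PBac library lay above every wt library, which held for 37.5% of all genes tested, and the genotypes overlapped for wg and ap. The changes were moderate in size. Only vg and hh passed a 2-fold change together with the threshold, and 17.0% of all genes did so in that direction. One gene, vg, was over the low-count minimum of 0.299 CPM in 2 of 3 wt and in all 3 CG1603PBac libraries, so the wt libraries alone would not have brought it into the test. Of the other 9, which passed that minimum in every wt library, 8 rose, with a median of 0.57.

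**Figure D1:**
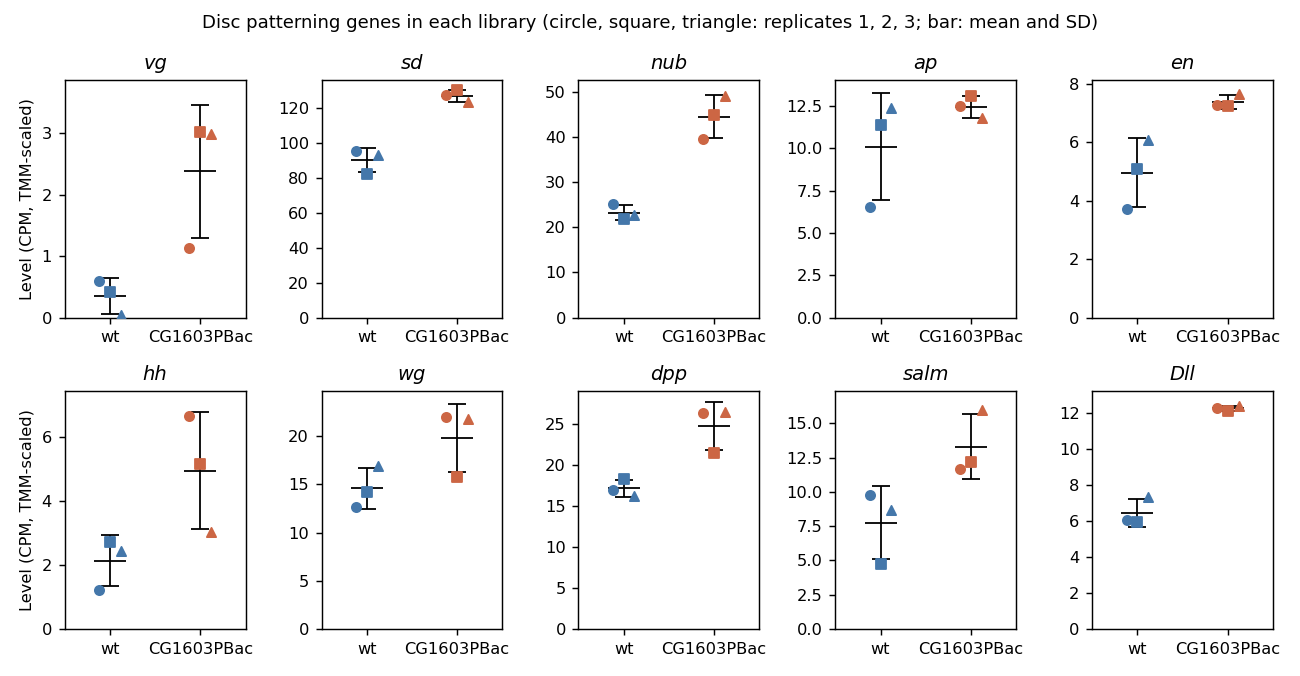
Level of each disc patterning gene (CPM with TMM factors, linear axes from 0) in the 3 wt and 3 CG1603PBac libraries, with the mean and SD of each genotype. The genotypes are separate for 8 genes and overlap for ap and wg, and the vg axis ends near 3 CPM while that of sd passes 120 CPM.

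Both the scaling and the length of these genes bear on that count. With library totals in place of TMM factors, the median of all genes moved from 0.06 to 0.45, all 10 genes were called higher, ap included (0.69, adjusted p = 0.00681 from edgeR), and so were 50.1% of all genes tested, with 22.9% lower. Fold changes also ran with exon length. Among all genes tested, cut into 10 bins by length, the bin with the shortest exons had a median of −0.18 and that with the longest 0.64, and the shares called higher were 23.9% and 67.7%. All 10 genes were longer than the median of 1960 bases, from 2370 bases for hh to 8766 for sd. With that trend removed, 5 rose (vg, hh, Dll, nub and wg), sd fell and 4 did not pass, beside 29.8% of all genes higher and 38.3% lower. Their median was then 0.46, against −0.07 over all genes.

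**Figure D2:**
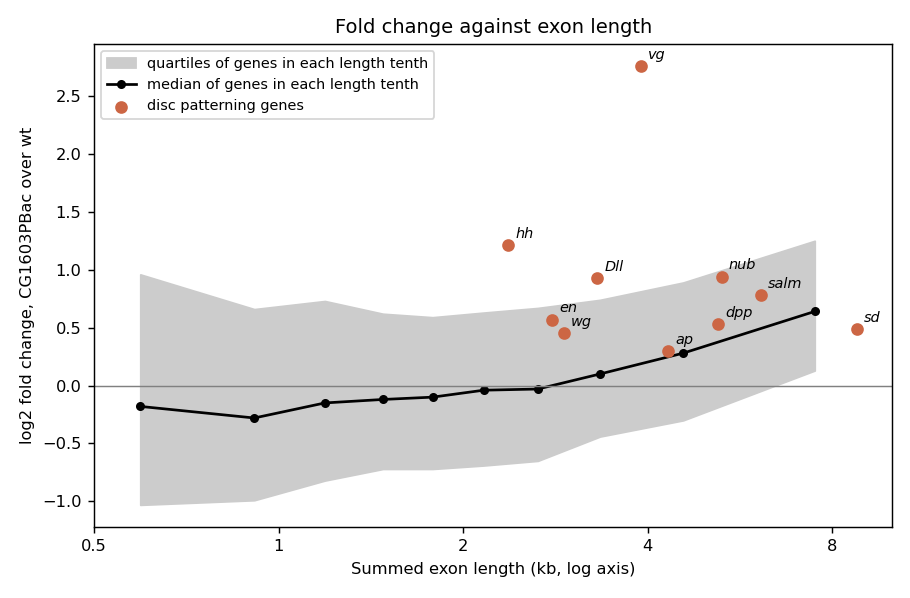
Log2 fold change against summed exon length (kb, log axis). The line joins the medians of all genes tested in 10 bins of length, the band gives their quartiles, and the points are the 10 disc patterning genes. Longer genes had higher fold changes on the whole, hh, vg and Dll lie well above the line, and sd lies below its end.

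The wing selector vg and its partner sd were both higher, from levels that were far apart. Vg is a nuclear cofactor without a DNA-binding domain of its own, and Sd, a TEA-domain protein, provides the DNA binding. Counts of vg (chromosome 2R, 12884201 to 12899385, plus strand, dm6) stood at 18, 12 and 1 for wt, against 35, 109 and 123 for CG1603PBac. These are 0.597, 0.414 and 0.0338 CPM against 1.13, 3.01 and 2.99 CPM. The genotypes did not overlap, but CG1603PBac replicate 1 lay well below the others of its genotype and wt replicate 3 held a single read. The fitted log2 difference was 2.76 (SE 0.75, adjusted p = 0.00262 from edgeR), the largest of the 10 genes and the least precise. Leaving out each library in turn gave 2.21 to 3.39, with adjusted p from 0.00194 to 0.0256.

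The most abundant of the genes was sd, on chromosome X from 15804370 to 15827682 on the plus strand. It was at 95.3, 82.2 and 93.0 CPM in wt and 127, 130 and 123 CPM in CG1603PBac libraries, with little spread in either genotype. The means were 90.2 ± 6.99 and 127 ± 3.34 CPM (SD, n = 3). On the log2 scale sd rose by 0.49 (SE 0.07), with an adjusted p of 1.17e-06 from edgeR. This direction did not hold against genes of like length. With the exon length trend removed sd was lower, at −0.19 (adjusted p = 0.0143 from edgeR).

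The third wing gene, nub, encodes a POU-domain protein of the wing pouch and hinge and is also used in the embryonic nervous system and the gut. It lies on chromosome 2L from 12587625 to 12628135 on the plus strand. Its levels were 25.1, 21.8 and 22.7 CPM in wt and 39.5, 44.8 and 49.1 CPM in CG1603PBac libraries. Every CG1603PBac library was thus well above the wt libraries. The means of 23.2 ± 1.71 and 44.5 ± 4.84 CPM (SD, n = 3) correspond to a log2 fold change of 0.94 (SE 0.11), with the smallest adjusted p of the 10 genes (1.77e-07 from edgeR). Without the length trend it was 0.54 and still passed (adjusted p = 2.08e-04 from edgeR).

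The compartment selectors ap and en differed in outcome. Ap, a LIM-homeodomain protein, marks the dorsal compartment of the wing disc, and En, a homeodomain protein, marks posterior compartments, where it turns on hh and keeps ci off. The level of ap (chromosome 2R, 5706202 to 5727525, minus strand) was 6.51, 11.4 and 12.4 CPM in wt and 12.5, 13.1 and 11.8 CPM in CG1603PBac libraries. Only wt replicate 1 was apart from the other 5 libraries. The log2 fold change of 0.30 (SE 0.21) did not pass (adjusted p = 0.207 from edgeR). The level of en (chromosome 2R, 11524006 to 11528210, minus strand) was 3.72, 5.07 and 6.08 CPM in wt and 7.27, 7.22 and 7.66 CPM in CG1603PBac libraries. The CG1603PBac values were tight and the wt values spread over a wider range below them. En RNA thus rose by 0.57 on the log2 scale (SE 0.24, adjusted p = 0.0408 from edgeR). This call was close to the threshold, and it was lost when any single library other than wt replicate 3 was left out (0.40 to 0.59, adjusted p from 0.0502 to 0.143).

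All 3 ligands were higher. Hh, made by posterior cells, signals across the anteroposterior border, where it induces dpp in the wing disc. Counts of hh (chromosome 3R, 23128169 to 23141906, minus strand) were 37, 79 and 72 for wt, against 207, 186 and 125 for CG1603PBac. The corresponding levels were 1.23, 2.73 and 2.43 CPM against 6.66, 5.14 and 3.04 CPM. The lowest CG1603PBac library was close to the highest wt library, and the spread was wide in both genotypes. The rise was 1.21 on the log2 scale (SE 0.37, adjusted p = 0.00667 from edgeR), and 1.21 as well with the length trend removed. Without CG1603PBac replicate 1 it was 0.94 and no longer passed (adjusted p = 0.0742 from edgeR).

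Dpp is a BMP ligand expressed in a stripe along the anteroposterior border. Its gene (chromosome 2L, 2428372 to 2459823, plus strand) was at 16.9, 18.3 and 16.2 CPM in wt and 26.3, 21.4 and 26.5 CPM in CG1603PBac libraries. The wt values were close together, and CG1603PBac replicate 2 was nearest to them. On the log2 scale dpp rose by 0.53 (SE 0.13, adjusted p = 0.00131 from edgeR), and 0.14 without the length trend, which did not pass (adjusted p = 0.354 from edgeR).

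Wg, the Wnt ligand of the wing margin and of the ventral leg, showed the smallest change among the called genes. Its gene (chromosome 2L, 7307159 to 7316265, plus strand) was at 12.7, 14.2 and 16.9 CPM in wt and 22.0, 15.8 and 21.8 CPM in CG1603PBac libraries. The highest wt library, replicate 3, lay above CG1603PBac replicate 2. On the log2 scale wg rose by 0.45 (SE 0.16, adjusted p = 0.0180 from edgeR). It was 0.35 to 0.38 and did not pass without wt replicate 1, CG1603PBac replicate 1 or CG1603PBac replicate 3 (adjusted p from 0.0768 to 0.0943 from edgeR). Without CG1603PBac replicate 1 only 6 of the 10 genes were called, since en, hh and wg were lost, beside 31.3% of all genes.

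Of the genes that act further downstream, Dll stood at nearly the same level in all CG1603PBac libraries. Dll encodes a homeodomain protein of the distal leg and antenna. The gene (chromosome 2R, 24814822 to 24835667, plus strand) was at 6.04, 5.97 and 7.36 CPM in wt and 12.3, 12.1 and 12.4 CPM in CG1603PBac libraries. The means were 6.46 ± 0.784 and 12.3 ± 0.138 CPM (SD, n = 3). Its rise of 0.93 on the log2 scale (SE 0.19, adjusted p = 1.88e-04 from edgeR) passed under every alternative tried, from 0.81 to 1.32.

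In the wing pouch salm, a zinc finger gene, is switched on by Dpp signalling, and it also has roles in oenocytes, tracheae and photoreceptors. It lies on chromosome 2L from 11434311 to 11445614 on the minus strand. It was at 9.79, 4.73 and 8.68 CPM in wt and 11.7, 12.2 and 16.0 CPM in CG1603PBac libraries. The wt libraries spread widely, with replicate 2 low, but stayed below the CG1603PBac libraries. Its rise was 0.78 on the log2 scale (SE 0.23, adjusted p = 0.00492 from edgeR) and, with the length trend removed, 0.28, which did not pass (adjusted p = 0.286 from edgeR).

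**Figure D3:**
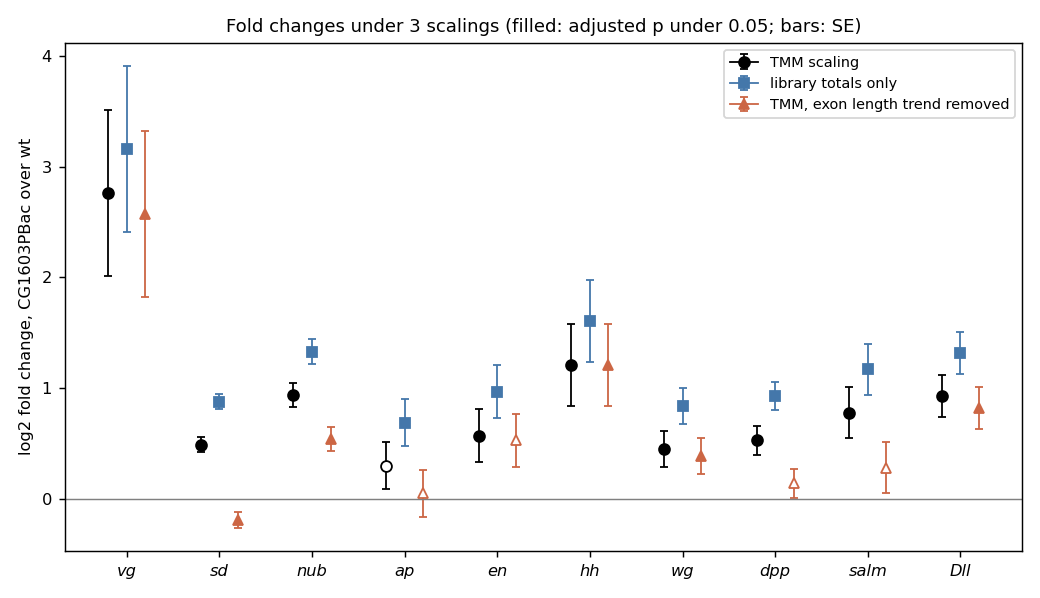
Log2 fold change of CG1603PBac over wt with its SE for each disc patterning gene, with TMM factors, with library totals only, and with the exon length trend removed. Filled symbols had an adjusted p under 0.05. Every value is above 0 with TMM and with library totals, where ap is filled only in the latter, and sd falls below 0 with the length trend removed.

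The spread between replicates differed among the genes. In wt libraries the coefficient of variation ran from 6.22% for dpp to 82.5% for vg, and in CG1603PBac libraries from 1.13% for Dll to 45.6% for vg. No library was high or low for all of the genes. Replicate 1 was the lowest wt library for ap, wg, hh and en and the highest for vg, sd, salm and nub. In CG1603PBac libraries, replicate 3 was the highest for 5 genes and the lowest for 3.

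Scaled to exon length, the order of the levels was almost the same in both genotypes. In wt it ran from sd (10.3 ± 0.797 CPM per kb) through wg (4.99 ± 0.732), nub (4.40 ± 0.324), dpp (3.28 ± 0.204), ap (2.34 ± 0.734), Dll (1.95 ± 0.237), en (1.78 ± 0.425), salm (1.26 ± 0.435) and hh (0.898 ± 0.335) to vg (0.0895 ± 0.0738, SD, n = 3). The libraries of wg and nub overlapped, as did those of each neighbouring pair from ap to hh, so their order is not fixed by these data. In CG1603PBac larvae nub, at 8.43 ± 0.917 CPM per kb, came before wg (6.81 ± 1.22), with overlapping libraries, and Dll (3.71 ± 0.0419) came before ap (2.88 ± 0.156, SD, n = 3), without overlap. Summed over the 10 genes, the level was 30.1 to 33.5 CPM per kb in wt and 47.0 to 49.8 CPM per kb in CG1603PBac libraries.

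Several of these genes lie next to a paralogue in the genome. The ratios within a pair were compared by exact permutation, which cannot pass the threshold with 3 against 3 libraries. That test therefore does not decide whether the responses within a pair differed, and the ratios are given as a description. For salm and its neighbour salr, which act together in the wing pouch, both were higher. The level of salr was 6.54, 6.18 and 5.07 CPM in wt and 9.62, 12.9 and 10.6 CPM in CG1603PBac libraries, so salr rose by 0.90 on the log2 scale (SE 0.21), with an adjusted p of 6.20e-04 from edgeR. For nub and pdm2, the latter was at 5.21, 7.42 and 4.80 CPM in wt and 5.73, 6.72 and 5.96 CPM in CG1603PBac libraries, without a call (0.08, adjusted p = 0.786 from edgeR). The log2 ratio of nub to pdm2 was 1.93 ± 0.38 in wt and 2.76 ± 0.16 in CG1603PBac libraries (SD, n = 3), higher in all 3 of the latter. The difference of 0.83 had an exact permutation p = 0.1, two-sided, which is the smallest that 3 against 3 libraries allow (0.4 adjusted over the 4 pairs). For en and inv, the latter was at 3.09, 2.69 and 1.96 CPM in wt and 2.00, 4.29 and 2.84 CPM in CG1603PBac libraries, with no call (0.24, adjusted p = 0.599 from edgeR). Of the Wnt genes beside wg, Wnt4 was higher (0.71, adjusted p = 0.00117 from edgeR). Wnt6 (0.06, adjusted p = 0.811) and Wnt10 (0.10, adjusted p = 0.924, at 0.531 ± 0.273 CPM in wt, SD, n = 3, from edgeR) did not pass. The differences in log2 ratio of en to inv (0.39), wg to Wnt6 (0.34) and salm to salr (−0.06) had exact permutation p-values of 0.5, 0.5 and 0.9.

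The lists of other pathway genes below were drawn up from textbook roles. Among 24 genes of Wg signalling, 9 rose, 1 fell and 14 gave no call, and the median was 0.30. Over all genes tested 34.8% were higher and 34.9% lower, with a median of 0.06. The share of Wg genes that rose was thus near that of all genes, and the share that fell was smaller. The receptor genes fz2 (0.81, adjusted p = 3.98e-07) and fz (0.50, adjusted p = 0.0139) rose, while the co-receptor gene arr was at 0.21 (adjusted p = 0.218 from edgeR). The TCF factor gene pan rose most, from 62.5 ± 10.9 to 165 ± 7.41 CPM (SD, n = 3), followed by the feedback inhibitor gene nkd (0.82, adjusted p = 1.31e-05 from edgeR). With 14425 and 7422 exon bases pan and fz2 are in the longest length bin, where 67.7% of all genes were called higher. The gene of beta-catenin, arm, fell slightly (−0.14, adjusted p = 0.0223 from edgeR) and was higher with library totals (0.26). The 2 lowest values were those of fz3 (−0.27) and dsh (−0.24), neither of which passed. With the length trend removed, 4 were higher and 4 lower.

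Of 17 genes of Dpp signalling tested, 11 rose, 0 fell and 6 gave no call, and the median was 0.36. The shares over all genes tested were 34.8% higher and 34.9% lower. None fell by DESeq2, by limma-voom or at an unadjusted p under 0.05 in edgeR, while 1 did with the length trend removed. The largest rises were in shn, a zinc finger gene of the Mad and Medea complex, from 59.3 ± 3.96 to 153 ± 9.98 CPM, and in cv-2, a BMP-binding protein gene, from 15.2 ± 1.60 to 30.3 ± 2.04 CPM (SD, n = 3). The exons of shn, at 10997 bases, also put it in the longest length bin (67.7% of all genes higher). The known targets of the pathway split. The inhibitory Smad gene Dad (0.91, adjusted p = 7.29e-08) and the T-box gene bi, also called omb (0.92, adjusted p = 3.05e-05), were higher, and brk, which the pathway represses, was at −0.04 (adjusted p = 0.886 from edgeR). With 6095 exon bases bi is in the longest length bin as well. The type I receptor gene tkv was at 0.05 (adjusted p = 0.637) and the type II receptor gene put at 0.03 (adjusted p = 0.718), and Mad, the Smad they act on, was at 0.31 (adjusted p = 0.00142 from edgeR). One listed gene, scw, was not tested, with 3 reads in 1 CG1603PBac library and 0 in the others.

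Of 15 genes of Hh signalling, 5 were higher, 4 lower and 6 without a call, shares near those of all genes tested (34.8% higher and 34.9% lower). The median of 0.15 became −0.22 with the length trend removed, with 4 genes higher and 5 lower. Genes with roles in processing Hh for sending diverged. The acyltransferase gene rasp fell by 0.73 on the log2 scale (adjusted p = 8.03e-07), and disp, needed for release of the ligand, rose by 0.92 (adjusted p = 1.18e-04 from edgeR). Of genes with roles in receiving cells, ci, the transcription factor of the pathway, rose from 28.1 ± 3.26 to 45.6 ± 1.10 CPM (SD, n = 3). With 5651 exon bases ci is in the longest length bin (67.7% of all genes higher). The gene of its inhibitor, Su(fu), fell by 0.51 on the log2 scale (adjusted p = 5.50e-05 from edgeR). The receptor gene ptc, itself a target of Hh, was at 0.18 (adjusted p = 0.565) and smo at −0.09 (adjusted p = 0.606 from edgeR). The largest rise was in kn, an anterior border gene of the wing, from 4.48 ± 0.508 to 12.1 ± 1.72 CPM (SD, n = 3). Exons of smo are shared in part with CG11601 (12.4%) and CG17078 (14.6%) on the opposite strand.

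Of 21 tested genes of Notch signalling and the dorsoventral border, 10 rose, 2 fell and 9 gave no call, and the median was 0.15. This list and the Hippo list below stand beside 34.8% of all genes tested higher and 34.9% lower. The LIM-only gene Bx, whose protein opposes Ap, rose from 5.45 ± 1.73 to 13.6 ± 1.69 CPM, and ct, a wing margin gene that Notch and Wg turn on, from 14.9 ± 1.70 to 42.1 ± 2.13 CPM (SD, n = 3). At 12443 exon bases ct too is in the longest length bin (67.7% of all genes higher). Chi, the cofactor that Ap needs, was at 0.13 (adjusted p = 0.355), and the ligand gene Ser, an early Ap target, at −0.01 (adjusted p = 0.933 from edgeR). The gamma-secretase genes nct (−0.50) and Psn (−0.40) were the lowest and both fell (adjusted p of 7.39e-06 and 9.94e-06 from edgeR). Exons of nct are shared in part with HDAC11 (12.9%) and those of Psn with mRpL15 (2.29%), on the opposite strand. Of 17 Hippo pathway genes, 7 were higher, 4 lower and 6 without a call, with a median of 0.12. Yki, the coactivator that binds Sd, was higher at the RNA level (0.45, adjusted p = 6.32e-05), as were kibra (0.63, adjusted p = 5.08e-06) and th, the Diap1 gene, from 155 ± 14.5 to 315 ± 12.1 CPM (SD, n = 3). With 5750 exon bases kibra is in the longest length bin. Exons of th are shared in part (11%) with a non-coding gene on the opposite strand. The genes of the myosin Dachs (d, −1.05, adjusted p = 2.73e-04) and of the kinase Hippo (hpo, −0.51, adjusted p = 2.30e-05 from edgeR) were lower.

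Other transcription factors of the discs were higher more often than lower, beside 34.8% of all genes tested higher and 34.9% lower. Of 24 tested wing genes, 12 were higher and 3 lower, with a median of 0.43, and of 18 leg and antenna genes 11 were higher and 1 lower, with a median of 1.20. Library totals gave 19 and 1 of the wing genes and 16 and 0 of the leg and antenna genes, and with the length trend removed 5 wing genes were higher and 7 lower. The largest value in the wing list was that of rn, a zinc finger gene of the distal wing and leg, with 4, 0 and 2 reads for wt, against 41, 70 and 75 for CG1603PBac. It was over the low-count minimum in 0 of 3 wt libraries and was tested only because of the CG1603PBac libraries, and its fitted log2 fold change of 4.58 (SE 0.96) rests on those few wt reads. Next came tio (2.05, adjusted p = 1.65e-04 from edgeR), which shares 15.5% of its exons with a non-coding gene on the same strand. With 6273 and 5708 exon bases rn and tio are in the longest length bin (67.7% of all genes higher). The lowest was nab, whose protein binds Rn as a cofactor, from 6.40 ± 2.42 to 1.20 ± 0.416 CPM (SD, n = 3), and kni was at −0.46 (adjusted p = 0.193 from edgeR).

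Among leg and antenna genes, B-H1 (1.77, adjusted p = 0.0741) did not pass and dan (1.67, adjusted p = 0.0358 from edgeR) did, both with few wt reads. Each was over the low-count minimum in 2 of 3 wt and in all 3 CG1603PBac libraries. The wt libraries alone would thus not have brought either into the test. With at least 10 counts in every library the median of the leg and antenna genes was 1.15. The lowest were al (−0.58, adjusted p = 0.0688) and drm (−0.16, adjusted p = 0.0386 from edgeR), the latter higher with library totals (0.24) and called lower without wt replicate 1 only, among the libraries left out singly. Of 10 tested eye genes, 3 rose, 0 fell and 7 gave no call. The share that rose was near the 34.8% of all genes tested, and the share that fell was below the 34.9% of all genes. The median of the eye genes was 0.78, but 0.23 without CG1603PBac replicate 1 and 0.47 without wt replicate 2, and 0.46 with at least 10 counts in every library. The Pax6 gene toy rose from 14.1 ± 0.741 to 39.3 ± 3.36 CPM (SD, n = 3), and gl was at 1.08 (adjusted p = 0.357), eya at −0.65 (adjusted p = 0.122) and sens at −0.50 (adjusted p = 0.187 from edgeR). Of these, gl was over the low-count minimum in 1 of 3 wt and in all 3 CG1603PBac libraries, and was tested only because of the latter. By DESeq2, limma-voom or an unadjusted p under 0.05 in edgeR none of the eye genes was lower either, while 1 was without wt replicate 1. No read of the proneural gene ato was counted in any library.

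**Figure D4:**
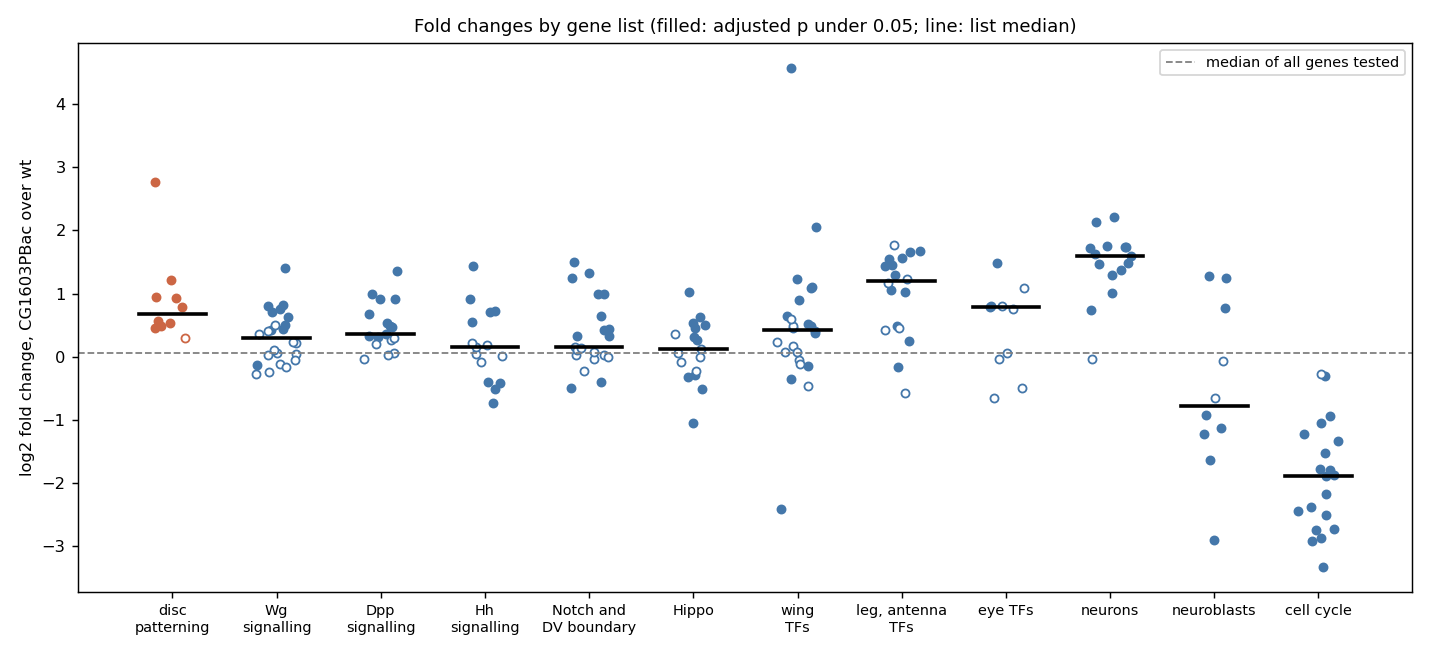
Log2 fold change of CG1603PBac over wt for each tested gene of the lists, filled where the adjusted p was under 0.05, with the list median as a bar and the median of all genes tested (0.06) as a dashed line. The disc patterning genes lie between 0.30 and 2.76 and the leg and antenna genes mostly above 1. The neuronal genes lie between −0.03 and 2.22 (median 1.60) and the cell cycle genes between −3.33 and −0.28 (median −1.89).

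Markers of other tissues moved as well, and their part in the results above was not tested. Their counts stand beside 34.8% of all genes tested higher and 34.9% lower. Of 15 neuronal genes, 14 rose and 1 gave no call, and the median on the log2 scale was 1.60 (1.03 with the length trend removed). Their summed level was 740 to 825 CPM in wt and 1790 to 1880 CPM in CG1603PBac libraries, and none of them was at 0. Of 10 neuroblast genes, 3 were higher and 5 lower (median −0.78), and of 10 glial genes 4 were higher and 1 lower (median 0.10). Of 20 cell cycle and replication genes, 0 were higher (also by DESeq2, limma-voom or an unadjusted p under 0.05) and 19 lower, with a summed level of 816 to 826 CPM in wt and 238 to 247 CPM in CG1603PBac libraries. Of 3 listed markers of imaginal and other diploid precursor cells, esg (14.1 ± 0.952 to 19.8 ± 2.81 CPM) and hdc (30.8 ± 3.05 to 95.4 ± 5.58 CPM, SD, n = 3) rose. The other, fj, a gene with graded disc expression, was at −0.08 and did not pass (adjusted p = 0.669 from edgeR). With 15063 exon bases hdc is in the longest length bin, where 67.7% of all genes were called higher. Of 12 muscle genes 10 were lower and 1 higher, of 9 midgut genes 5 were lower and 2 higher, and of 6 tested fat body genes 3 were lower and 0 higher (0 by DESeq2 or at an unadjusted p under 0.05, 1 by limma-voom, and 2 without wt replicate 3). Tracheal genes (3 lower and 1 higher of 7, median 0.08) and hemocyte genes (3 lower and 2 higher of 8, median −0.58) had shares lower not far from the 34.9% of all genes tested.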

How the data were processed

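Each deposited file holds, for a single library, the authors' raw counts per gene, without normalization or pooling. Per the study's methods, reads were checked with FastQC, aligned to dm6 with STAR in 2 passes and counted with HTSeq. The annotation version and the strand setting of the counting are not given in the sources used here. HTSeq's categories that name no gene were left out. The quasi-likelihood test of edgeR 4.0.16 (R 4.3.3; glmQLFit and glmQLFTest, robust) was run with TMM scaling after filterByExpr (minimum count 10, minimum total 15), with genotype as the only term, and p-values were adjusted by Benjamini-Hochberg. The SE of an edgeR fold change was back-calculated, as the absolute log2 fold change over the square root of the F statistic of the test. CPM per kb used summed exon lengths of the Ensembl annotation of dm6, in which the 10 genes share no exon with another gene. Of 16727 symbols 16574 were matched, 4062 of them by an older name.

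The 10 genes, the lists and the tests were chosen with earlier results of these data known. Named genes are the 10, a fixed set of their receptors, effectors and neighbours, and the 2 lowest and 2 highest of each pathway list. Genes named beyond that rule were picked after their values were seen. Replicates differed beyond sampling noise, with chi-square values per gene of 7.46 to 17.0, and nothing in the labels says whether they came from separate cultures, so p-values measure the spread between these libraries. The low counts of vg limit its precision.

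The alternatives were DESeq2 1.42.0, its size factors in edgeR, library totals, no filter, a minimum of 10 counts in each library, limma-voom (limma 3.58.1), a replicate block, each library left out, removal of the loess trend (span 0.5) of fold change on exon length, glmTreat against 1.5-fold, and for ratios an added CPM of 0.1 in place of 0.5. The main fit was tested on simulated data with a small share of genes changed, equally up and down and without a length trend. That test does not address the effects of scaling and exon length.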

Additional observations from a re-analysis of the deposited data

Results flagged for a closer look

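Reads outside the gene counts differed between the genotypes. Unaligned reads were 31.4 ± 0.447% of the total in CG1603PBac and 8.77 ± 0.354% in wt libraries (SD, n = 3). These reads had no reported place in the genome, and their part in the fold changes was not tested.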

How the results depend on the processing

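Scaling and exon length moved the counts, and the cause was not tested. With library totals 2585 genes were lower, 5 of the disc patterning genes passed 2-fold, and higher and lower counts were 17 and 0 for Wg, 9 and 1 for Hh, 18 and 0 for Notch, 11 and 1 for Hippo and 19 and 1 for wing genes, with 0 leg and antenna genes lower. With the length trend removed, 5 disc patterning genes were higher and 1 lower, and the counts were 4 and 4 for Wg, 6 and 5 for Notch, 4 and 8 for Hippo and 5 and 7 for wing genes, with 1 Dpp gene lower. With the replicate block as well, 4 disc patterning genes were higher and 1 lower, 3 and 4 Wg, 6 and 5 Notch, 4 and 8 Hippo and 5 and 7 wing genes, 3 Hh and 7 leg and antenna genes were higher, 5 Hh genes were lower, and 2 Dpp genes were lower. With at least 10 counts in every library vg was not tested, 1 gene passed 2-fold, and 0 Wg and 0 leg and antenna genes were lower. With glmTreat, which tested against 1.5-fold and not 2-fold, 4 disc patterning genes passed.

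Replicate numbers did not pair the samples, since same-numbered libraries deviated together with correlations from −0.0204 to 0.00573. With the replicate block alone, 7741 genes differed and 9 disc patterning genes were higher, so it changed no call among the 10.

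Leaving out each library gave 6 to 9 disc patterning genes higher, 1 to 3 past 2-fold, 0 to 1 Wg, 1 to 4 wing, 0 to 2 leg and antenna and 0 to 1 eye genes lower, and −0.39 to 0.15 for the change in the ratio of salm to salr, which was 0.07, 0.15 and 0.11 without wt replicates 1 and 3 and CG1603PBac replicate 2. Signs turned with library totals for Ser (0.38), arm (0.26), brk (0.35), drm (0.24), dsh (0.15), fz3 (0.13) and smo (0.30), and for the fat body median (from −0.36 to 0.03). With the length trend removed they turned, without and with the block, for sd (−0.19, −0.20), arr (−0.28, −0.28), inv (−0.24, −0.29), pdm2 (−0.22, −0.22), ptc (−0.25, −0.27), put (−0.17, −0.19) and tkv (−0.22, −0.22), and for the medians of Hh (−0.22, −0.25), Hippo (−0.21, −0.22), glial (−0.11, −0.12) and tracheal genes (−0.30, −0.32). Without single libraries the medians ran from 0.23 to 0.92 for eye, 0.04 to 0.30 for Hh and 0.10 to 0.26 for Notch genes. Values that were not called crossed 0, from −0.09 to 0.08 for Ser, −0.23 to 0.52 for Wnt10, −0.11 to 0.32 for Wnt6, −0.09 to 0.47 for inv, −0.06 to 0.29 for pdm2, −0.02 to 0.08 for put, −0.06 to 0.17 for tkv and −0.17 to 0.06 for brk, and Ser was 0.02 with at least 10 counts in every library.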
